A study of Mus musculus with 12 samples.

Results

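The Ifi200 cluster is a family of interferon-inducible genes on mouse chromosome 1, and 8 of them are described here: Aim2, Ifi209, Ifi208, Ifi207, Ifi204, Mndal, Ifi211 and Ifi203, in the order in which they lie along the chromosome. They were taken as a family chosen by name with the peak calls of niche and distal libraries in these same lists already known, out of 21631 protein-coding genes, and all 8 are in the RefSeq annotation of GRCm38. Open chromatin was mapped with Omni-ATAC-seq, an assay in which Tn5 transposase inserts adapters into accessible DNA. The nuclei came from alveolar type II (AT2) cells, which line the alveoli and secrete surfactant. Niche cells came from the metastatic niche of lungs carrying 4T1 cells (a mammary carcinoma line of BALB/c mice) or CT26 cells (a colon carcinoma line of BALB/c mice), and were set against distal cells, from the rest of the lung in the same model. The groups were 4T1 niche, 4T1 distal, CT26 niche and CT26 distal, with 3 libraries each. The BALB/c mice of all 4 groups bore tumours and were 6 to 8 weeks old, and lungs were taken 7 days after 800000 tumour cells of a labelling line had been given into the tail vein, and lungs without tumour are not part of the comparison. How niche cells were told from distal cells is not given in the sources used here. Each library was made from 50000 AT2 cells sorted by flow cytometry from a pool of 5 lungs. Each library is a bulk of cells, so opening in more cells and stronger opening in fewer cells cannot be told apart.

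Proteins of this family carry a HIN domain, which binds DNA, a pyrin domain, which binds other pyrin domains, or both. Aim2 protein binds double-stranded DNA in the cytosol and recruits the adaptor Pycard and the protease Casp1, which mature interleukin-1 and start an inflammatory form of cell death. Ifi204 protein is regarded as a mouse counterpart of human IFI16, which signals from foreign DNA to the interferon genes through STING. The family is best known from macrophages, where interferon raises many of its members through response elements that bind IRF and STAT factors.

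The libraries differed in the length of their peak lists. The niche libraries of 4T1 held 63722 to 66911 peaks, against 56330 to 58237 in its distal libraries, and the niche libraries of CT26 held 51005 to 55529, against 42067 to 50093 in its distal libraries. The lists give no read counts, so the depth is unknown. The label of the cells was checked on 12 AT2 marker genes (among them the surfactant genes Sftpc and Sftpb), and each of the 12 had a peak within 10 kb in all 12 libraries. Among 20 leukocyte markers, Adgre1, S100a9, Cd8a, Ncr1 and Laptm5 had no peak within 10 kb in any library. The summed length under peaks over the leukocyte markers, after scaling each library to the mean total covered length, was 21.04 to 24.04 kb in 4T1 niche libraries and 23.7 to 25.5 kb in 4T1 distal libraries. It was 21.8 to 24.2 kb in CT26 niche libraries and 20.8 to 24.6 kb in CT26 distal libraries.

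AT2 cells of the 4T1 niche had peaks at the upper ends of Ifi204, Ifi211 and Ifi203 in all 3 libraries, whereas 4T1 distal AT2 cells had none at Ifi204 and Ifi203 and 1 short peak at Ifi211. Peaks of the 12 libraries that overlapped by at least 1 bp were merged, which gave 9 regions within 10 kb of the 8 genes, out of 83727 regions in the genome. No region was held by all 12 libraries, 4 were held by 3 or more, and 4 were held by a single library. The 4 regions held by 3 or more libraries each overlapped or lay within 129 bp of an end of a member gene. The cluster carried 4, 5 and 4 peaks in the 4T1 niche libraries (replicates 1 to 3), against 2, 1 and 2 in the 4T1 distal libraries. The CT26 niche libraries carried 2, 3 and 2, and the CT26 distal libraries 2, 0 and 2.

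**Figure D1:**
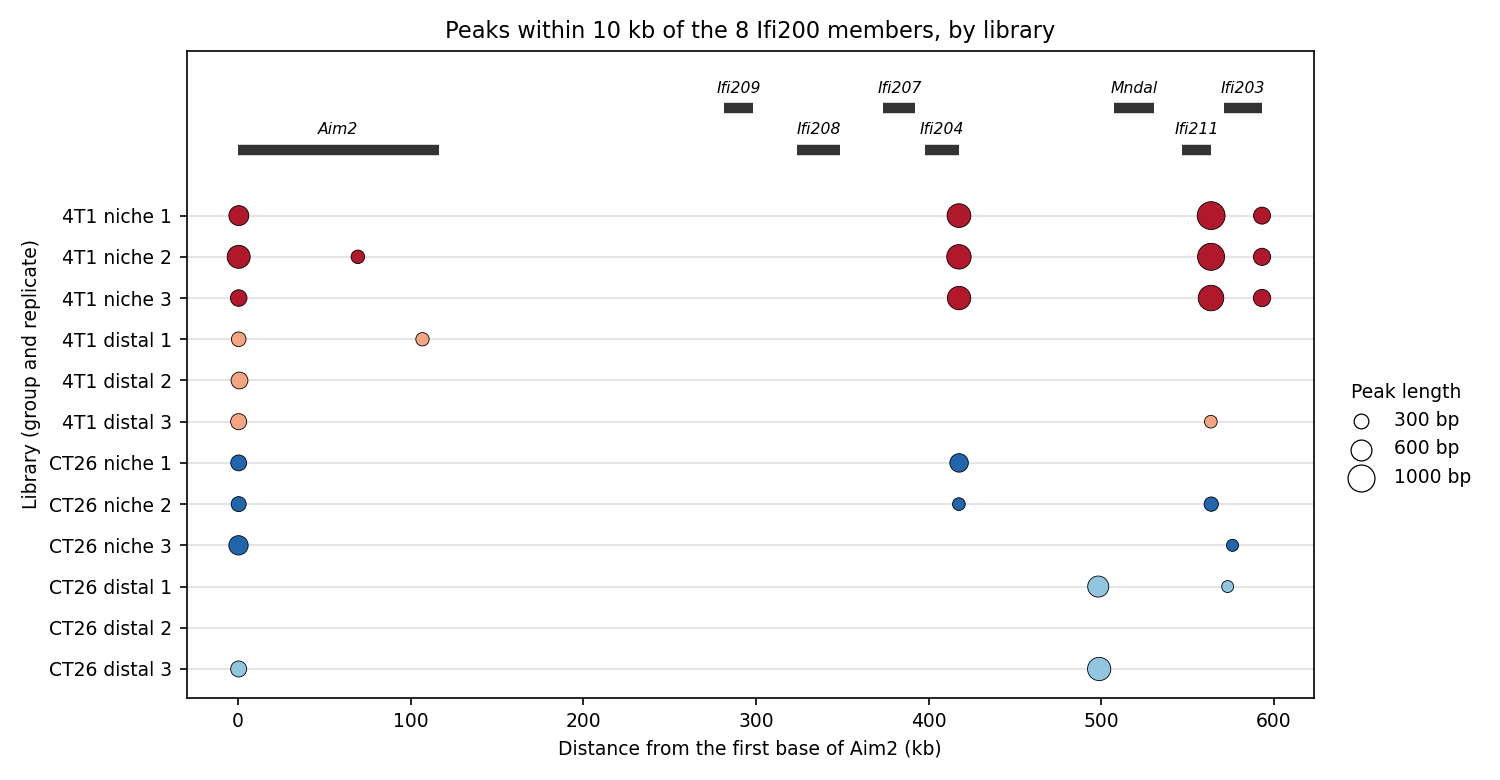
Peaks within 10 kb of the 8 members, by library (rows) and distance from the first base of Aim2 in kb (horizontal axis); circle area is the length of the peak in bp and the bars at the top are the genes. The 3 niche libraries of 4T1 share peaks at the ends of Ifi204, Ifi211 and Ifi203, whereas no library has a peak within 10 kb of Ifi209, Ifi208 or Ifi207.

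Each base counted once, the windows of the 8 genes made 388 kb, and 2.80, 3.23 and 2.45 kb of them lay under peaks in the 4T1 niche libraries, against 0.541, 0.392 and 0.580 kb in the 4T1 distal libraries. The means were 2.82 ± 0.39 kb in 4T1 niche and 0.504 ± 0.099 kb in 4T1 distal libraries (SD, n = 3 each). These lengths are unscaled, and the 4T1 niche libraries had the longer peak lists. After scaling to the mean total covered length the means were 2.335 ± 0.266 kb and 0.484 ± 0.112 kb. In CT26 the lengths were 0.822, 0.820 and 0.717 kb in the niche libraries, against 0.810, 0.000 and 1.10 kb in the distal libraries, and the distal libraries lay on both sides of the niche libraries. CT26 distal replicate 2, which had the shortest peak list, held no peak in the cluster. Without it the CT26 difference of niche minus distal turned to -0.17 kb, against 0.149 kb with it. The cluster was proposed with niche and distal results of these peak lists known, so lengths and calls between niche and distal are given as a description and support no further statement.

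Ifi204, the DNA sensor gene named above, carried a broad peak at its upper end (chromosome 1, gene 173747293 to 173767069, region 173766719 to 173767588, GRCm38). It was 778, 825 and 754 bp long in the 4T1 niche libraries, and no 4T1 distal library had a peak there. In CT26 it was 473 and 224 bp long in niche replicates 1 and 2, and niche replicate 3 and all CT26 distal libraries had none. The 4T1 niche peaks started 234 to 350 bp inside the gene and ended 463 to 519 bp beyond its end. By the authors' deposited values, their fold enrichment over the background of the library was 5.91 to 8.22, and it was 3.02 to 3.38 in the CT26 niche. Ranked by -log10 p within their own lists, the 4T1 niche peaks stood at percentiles 54.7 to 73.2 and the CT26 niche peaks at 3.62 to 9.56. Ifi204 was thus called in every niche library of 4T1 in the middle to upper part of the list, and in CT26 niche libraries near the bottom of it.

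Ifi211, a member known in the annotation also as Ifi205b and Mnda, carried the longest peak of the cluster (gene 173896339 to 173913087, region 173912647 to 173913719). It was 1073, 1008 and 899 bp long in the 4T1 niche libraries, against a single peak of 223 bp in 4T1 distal replicate 3. In CT26, niche replicate 2 had a peak of 284 bp, and no distal library had any. The 4T1 niche peaks had a fold enrichment of 4.67 to 6.13 and stood at percentiles 38.9 to 60.3, whereas the single peaks of the 4T1 distal and CT26 niche groups stood at 1.10 and 1.08.

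Ifi203, a further HIN gene of the cluster, carried a narrow peak inside its upper end (gene 173920400 to 173942866, region 173942448 to 173942863). It was 399, 408 and 416 bp long in the 4T1 niche libraries and was not called in any 4T1 distal, CT26 niche or CT26 distal library. It was the weakest of the 3, with a fold enrichment of 3.42 to 3.81 and percentiles of 14.6 to 25.1. In all 3 libraries the peak began at the same base, 418 bp inside the gene end. In addition the 10 kb beside Ifi203 take in the Ifi211 region, so the locus of Ifi203 counts both.

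**Figure D2:**
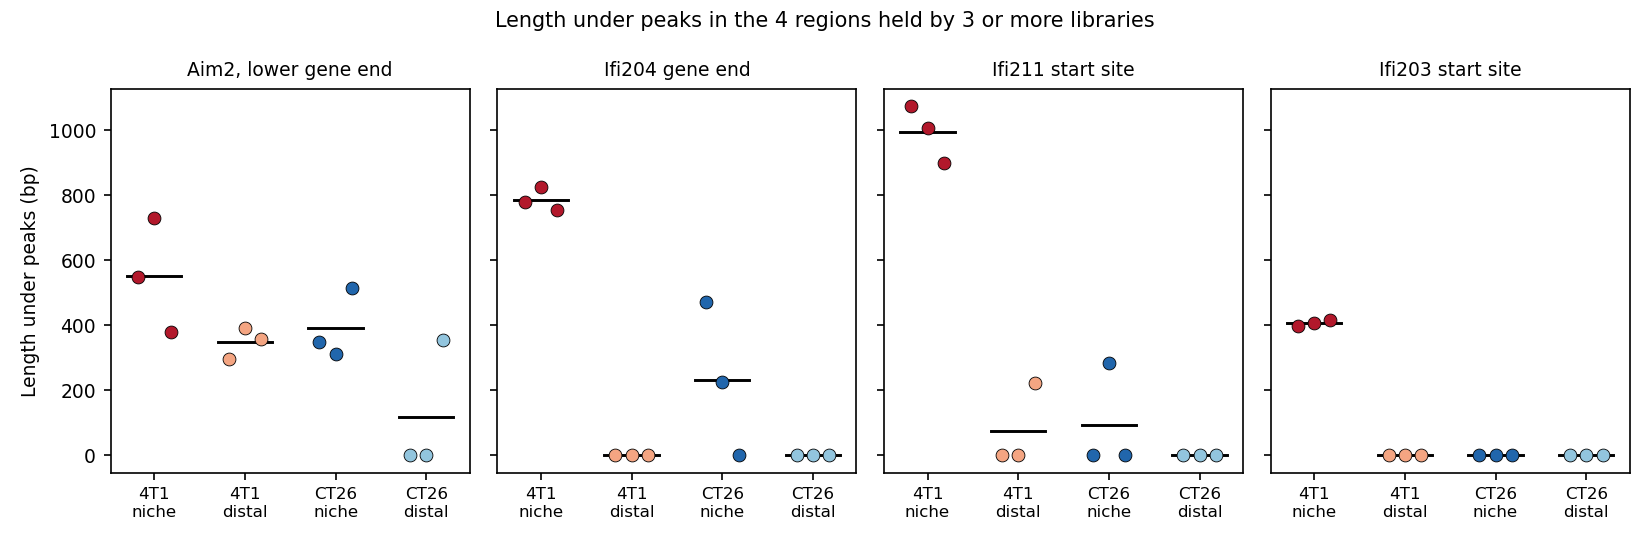
Length under peaks in bp (vertical axis) in the 4 regions held by 3 or more libraries, by group; points are libraries and lines are means (n = 3). At Ifi204, Ifi211 and Ifi203 the 4T1 niche libraries lie above all other libraries, and at Aim2 the 4T1 niche and distal libraries overlap.

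Aim2, the sensor of the inflammasome, behaved differently from these 3. Its region lay 129 bp inside the lower end of the annotated gene (gene 173349547 to 173466040, region 173349676 to 173350409), a stretch that is also inside the neighbouring adhesion gene Cadm3. It was 547, 730 and 379 bp long in the 4T1 niche libraries, against 295, 392 and 357 bp in the 4T1 distal libraries, and the groups overlapped. In CT26 it was 349, 312 and 516 bp long in the niche libraries, and only distal replicate 3 had a peak, of 355 bp. The promoter listed for Aim2 (173420354 to 173420653) lay far from it, inside the annotated gene, and had no peak in any library. Within the gene, 254 bp were called in 4T1 niche replicate 2 (173418927 to 173419180) and 246 bp in 4T1 distal replicate 1 (173456349 to 173456594), each in that library alone.

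The remaining members gave little or no signal. Ifi209, Ifi208 and Ifi207 had no peak within 10 kb in any of the 12 libraries. Mndal (gene 173857215 to 173880382) had no peak at the gene itself, and its locus held a region 8502 bp below its lower end that was called in CT26 distal replicates 1 and 3 (173847490 to 173848713, 613 and 747 bp). These peaks stood at percentiles 0.991 to 3.94 of their lists. The last 2 regions lay inside Ifi203 and were called in 1 library each, CT26 distal replicate 1 (197 bp) and CT26 niche replicate 3 (201 bp).

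The peaks at Ifi211 and Ifi203 lay on their promoters, and these are shown because a single interferon-type element recurs there and in members that stayed without a peak. RefSeq promoter windows of GRCm38.p6, from 250 bases before to 50 after a start site in the C57BL/6J reference, were matched for 7 of the 8 members; Ifi204 had none. The windows of Ifi211 (chr1:173912997-173913296, minus strand) and Ifi203 (chr1:173942443-173942742, minus strand) and the window of Mndal without a peak (chr1:173880138-173880437, minus strand) read, with the match described next in capitals:
Ifi211: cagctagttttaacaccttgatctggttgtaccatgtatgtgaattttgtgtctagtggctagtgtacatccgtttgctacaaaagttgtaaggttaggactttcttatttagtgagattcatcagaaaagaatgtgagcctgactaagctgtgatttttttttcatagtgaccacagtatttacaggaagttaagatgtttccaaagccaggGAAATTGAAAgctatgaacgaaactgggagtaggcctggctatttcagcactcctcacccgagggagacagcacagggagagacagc
Ifi203: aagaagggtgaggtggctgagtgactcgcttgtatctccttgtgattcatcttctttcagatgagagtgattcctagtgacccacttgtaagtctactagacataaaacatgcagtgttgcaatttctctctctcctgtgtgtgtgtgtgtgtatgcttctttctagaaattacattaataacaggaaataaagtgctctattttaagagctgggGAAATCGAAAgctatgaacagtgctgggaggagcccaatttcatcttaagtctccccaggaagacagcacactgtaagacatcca
Mndal: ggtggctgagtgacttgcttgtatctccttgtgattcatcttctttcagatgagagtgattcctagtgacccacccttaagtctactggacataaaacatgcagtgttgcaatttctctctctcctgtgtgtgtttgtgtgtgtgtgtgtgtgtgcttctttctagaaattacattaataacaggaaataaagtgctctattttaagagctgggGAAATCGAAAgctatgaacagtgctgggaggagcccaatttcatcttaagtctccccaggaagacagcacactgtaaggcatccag

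A pair of GAAA repeats set 2 bases apart is the core of the interferon-stimulated response element, which binds IRF and STAT complexes. It was searched on both strands, and 5 of the 7 members had it: Ifi208, Ifi207, Mndal, Ifi211 and Ifi203. Of 26794 genes with a promoter window, 1077 (4.02%) held a match. In the 5 members it lay close to the start site, beginning 58 bases before it in Ifi208, 41 in Ifi207, 36 in Mndal, 37 in Ifi211 and 35 in Ifi203. Mndal has another window, from a start site further into the gene, with a match on the opposite strand. The matches and the bases around them are shown for comparison, 5′ to 3′ along the gene, with the match in capitals:
Ifi208: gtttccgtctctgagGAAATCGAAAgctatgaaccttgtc
Ifi207: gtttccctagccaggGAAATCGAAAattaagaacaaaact
Mndal: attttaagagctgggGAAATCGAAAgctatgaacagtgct
Ifi211: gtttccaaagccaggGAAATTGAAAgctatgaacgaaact
Ifi203: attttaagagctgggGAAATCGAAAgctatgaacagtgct

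The form GAAATCGAAA, the commonest in the members' windows, was in 16 of the 26794 genes (0.0597%), and 4 of the 16 were members: Ifi208, Ifi207, Mndal and Ifi203. It is a case of the repeat pair and not a further motif, and it was searched because it recurred in these sequences. Ifi206, Ifi213 and Ifi214, other genes of the family on chromosome 1, held it too. Ifi211 held GAAATTGAAA in its place. The STAT-type motif TTCNNNGAA (9.61% of genes) had no match in the windows of the 7 members, and the AP-1-type motif TGANTCA (9.03%) had one in Ifi209, Mndal and Ifi203. A match says only that these letters are present. Of the 5 members with the repeat pair, Ifi211 and Ifi203 had a peak over it and Ifi208, Ifi207 and Mndal had no peak in the window in any library.

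The peaks of Ifi211 and Ifi203 in the 4T1 niche covered the element in all 3 libraries. The short peak of 4T1 distal replicate 3 at Ifi211 covered it as well, and the peak of CT26 niche replicate 2 began beyond it. Over all genes with a window, 114 of 26794 (0.425%) had a peak on the promoter in all 3 niche and no distal library of 4T1, and Ifi203 was the only member among them. Ifi211 missed that pattern through 4T1 distal replicate 3. In CT26 80 genes (0.299%) had that pattern and no member was among them.

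**Figure D3:**
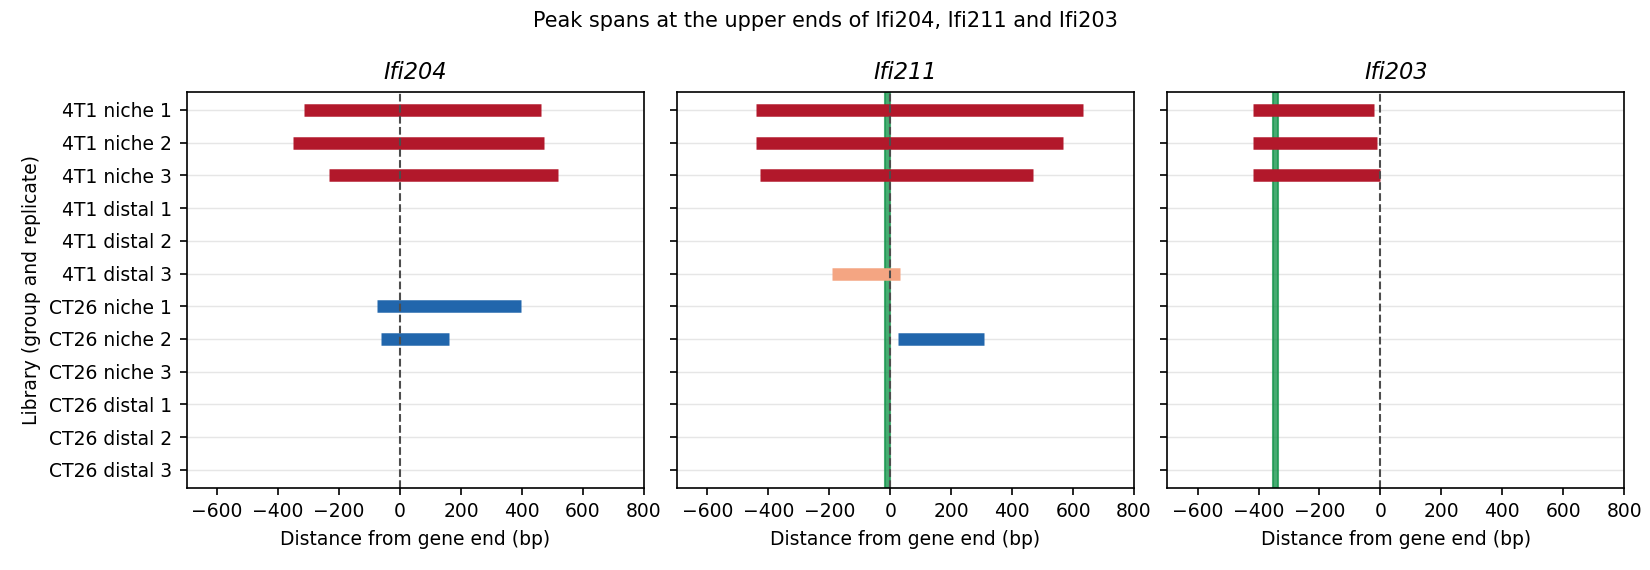
Spans of the peaks at the upper ends of Ifi204, Ifi211 and Ifi203, by library (rows) and distance from the gene end in bp (horizontal axis, positive values lie outside the gene); the dashed line is the gene end and the green band the pair of GAAA repeats, which was not searched at Ifi204. In the 4T1 niche libraries the peaks of Ifi211 and Ifi203 span the match, and those of Ifi203 begin at a common base.

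Several of these promoters are close copies of each other, which bears on where reads can be placed. The windows of Mndal and Ifi203 shown above were identical at 282 of 289 aligned bases (97.6%), with an unbroken identical run of 139 bases, yet Ifi203 was called and Mndal was not. The window of Ifi208 matched that of Ifi206 at 99.3% of aligned bases with a run of 182 bases, and Ifi209 matched Ifi214 at 96.0% with a run of 109 bases. None of these 4 genes had a peak. Ifi207 and Ifi211 shared 88.3% with a longest run of 31 bases, and Ifi211 was called and Ifi207 was not. Ifi211 and Ifi205 were identical at 188 of 199 aligned bases (94.5%) with a run of 45 bases, and both had promoter peaks in 4T1 niche libraries. How reads that match several places were treated is not given in the sources used here, so the values at Ifi203, Mndal, Ifi208 and Ifi209 are uncertain, and the part of such reads in the absence of peaks was not tested. The mice were BALB/c and the sequences are from C57BL/6J.

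The length under peaks within 10 kb of each gene was fitted for all 16823 protein-coding loci that had a peak in at least 3 libraries (limma on log2 of scaled bp plus 500; a locus was called at a Benjamini-Hochberg adjusted p under 0.05). Of the 8 members, Ifi203, Ifi204, Ifi211 and Aim2 entered the fit. In the 4T1 niche against 4T1 distal, 3 members were called higher (Ifi203, Ifi204 and Ifi211), beside 0.594% of all loci. As described above, nothing is read from that count, and a group without any peak, such as 4T1 distal at Ifi204, lowers the spread. Without 4T1 niche replicate 2 or without replicate 3 none of the 3 was called, and without 4T1 niche replicate 1 or any 1 of the 4T1 distal libraries Ifi203 alone was called. Ifi211 was also lost without CT26 niche replicate 1 or 3 and without CT26 distal replicate 2 or 3, which leaves it called in 2 of 12 cases. With 100 bp added in place of 500 none was called. With 2 kb beside the gene, or the gene body alone, the locus of Ifi203 no longer takes in the Ifi211 region, its log2 difference was 0.74 against 1.55 with 10 kb, and it was not called. When every list was shortened to its 42067 strongest peaks by -log10 p, the 3 were called, although the Ifi203 region itself was then lost and its locus rested on the Ifi211 region. In that set the Ifi204 and Ifi211 regions were held by all 3 niche libraries of 4T1 and by no other library. These loci thus entered that fit only through the 4T1 niche, and nothing is read from the calls.

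In the CT26 niche against CT26 distal, limma called none of the 4 members, beside 0.672% of all loci in either direction, and 2 had an unadjusted p under 0.05. The log2 difference was 0.50 ± 0.20 (SE) for Ifi204, which rested on niche replicates 1 and 2, and 0.56 ± 0.25 for Aim2, where 2 distal libraries had no peak. It was 0.22 ± 0.23 for Ifi203 and 0.04 ± 0.24 for Ifi211. Whether the niche difference itself differed between the models was fitted as an interaction. The niche difference in CT26 minus that in 4T1 was -1.34 ± 0.32 for Ifi203, -1.18 ± 0.34 for Ifi211, -0.70 ± 0.29 for Ifi204 and 0.41 ± 0.35 for Aim2, on the log2 scale of bp plus 500. No member was called there by limma, beside 0.0594% of all loci, and 3 had an unadjusted p under 0.05. Ifi203, Ifi204 and Ifi211 were called with the same number of peaks from each library, beside 13 of 16060 loci. They were also called with peaks of -log10 q of at least 5, beside 81 of 15659 loci. In both sets these loci entered the fit only through the 4T1 niche libraries, and their CT26 difference was 0. These calls were fixed by that filter and are not counted as results. In these stricter sets Ifi203 and Ifi211 had the same values, -1.50 with the same number of peaks and -1.39 with the q threshold, because the Ifi203 region was lost and both loci then rested on the Ifi211 region.

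Over both models, Ifi203 (log2 difference 0.89 ± 0.16 SE) and Ifi204 (0.85 ± 0.14) were called higher in the niche, beside 1.5% of all loci. For Ifi203 the difference was 1.55 ± 0.23 in 4T1 and 0.22 ± 0.23 in CT26, so the mean does not show a difference in each model. The members were chosen with niche and distal results known, and nothing is read from the Ifi203 call. Ifi204 had peaks in 5 libraries, all of them niche. It entered the fit only through the niche, the distal groups added no spread, and nothing is read from its call. Without any 1 of the 4T1 niche libraries neither was called, and without 4T1 distal replicate 1 or without replicate 2 Ifi204 alone was. The Ifi203 value rests in large part on the Ifi211 region: with 2 kb beside the gene or the gene body alone it was 0.36 and not called. Between the models, averaged over both sites, Ifi203 (-0.65 ± 0.16) and Ifi211 (-0.58 ± 0.17) were called lower in CT26 than in 4T1, beside 4.89% of all loci. The distal groups were alike at both loci, with 223 bp in 4T1 distal replicate 3, 197 bp in CT26 distal replicate 1 and none in the others. The difference lay between the niche groups. Each 4T1 niche library held at least 899 bp at either locus, and no CT26 niche library held more than 284 bp. CT26 libraries also had the shorter peak lists. Without the scaling, 0.269% of the called loci were higher in CT26, against 79.7% with it, and the median over all loci was -0.21 against 0.08 on the log2 scale. All 4 members were then called, again lower, but so were 7788 of 16823 loci, and nothing is read from that count. With the same number of peaks from each library Ifi203, Ifi204 and Ifi211 were called. These loci entered that fit only through the 4T1 niche libraries. With 100 bp added no member was called. Ifi211 was lost without any 1 of the 4T1 niche libraries, without 4T1 distal replicate 3, without CT26 niche replicate 1 or 3 and without CT26 distal replicate 2 or 3. Ifi203 was called in each of these cases, but with 2 kb beside the gene or the gene body alone its difference was -0.19 and not called, whereas Ifi211 was called under both.

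Other genes of the family gave few peaks. Ifi205, beyond Ifi203 on chromosome 1, held 365 and 634 bp under peaks within 10 kb in 4T1 niche replicates 2 and 3 and nothing in any other library. Ifi202b had a peak on its promoter in 4T1 niche replicates 1 and 2 (298 and 234 bp) and no peak within 10 kb in 4T1 distal libraries. Its locus also held 205 bp in CT26 niche replicate 2, against 685 and 211 bp in CT26 distal replicates 1 and 3. Ifi206, Ifi213 and Ifi214 had no peak in any library. Most other genes within 500 kb of the cluster, olfactory receptor genes for the larger part, had no peak in any library either.

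In a list of inflammasome genes, the loci of Casp4 and Casp1 had peaks in the 4T1 niche libraries alone, which had the longest peak lists. Casp4, which senses bacterial lipopolysaccharide in the cytosol (chromosome 9, 5308849 to 5336791), held 698, 535 and 1203 bp under peaks in the 4T1 niche libraries and none in any 4T1 distal, CT26 niche or CT26 distal library. Casp1, the protease of the inflammasome (chromosome 9, 5298517 to 5307281), held 379, 535 and 777 bp in the 4T1 niche libraries and none elsewhere. Both rested on a shared region over the lower end of Casp4 and outside the Casp1 gene (5308564 to 5309477), held by the 3 niche libraries of 4T1 alone. A further region within Casp12 (5345142 to 5345696), held by 2 of them, lay in the locus of Casp4. Both loci entered the fit only through the 3 libraries in which they had peaks, so their limma calls in 4T1 were fixed by that filter and are not counted as results.

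The other genes of these pathways were counted from lists of known members, drawn up with earlier results of these data known. In the inflammasome list of 11 tested loci, Casp1 and Casp4, with their shared region, were the 2 called in the 4T1 niche, where 0.594% of all loci were called higher, and for the reason given nothing is read from that count. In the CT26 niche limma called none of the 11, and 3 had an unadjusted p under 0.05. In the list of cytosolic DNA sensing (STING, Tbk1, Irf3, Zbp1 and others) limma called none of 16 in either niche comparison, and 1 in each had an unadjusted p under 0.05. Its median log2 difference was -0.08 in 4T1 (-0.05 over all loci) and -0.10 in CT26 (-0.04 over all loci). In the list of interferon receptors and factors, none of 16 was called in 4T1 by limma (1 with an unadjusted p under 0.05). In CT26 Stat2, a factor that binds the interferon response element, was called higher, beside 0.523% of all loci: its locus held 1855, 1905 and 1455 bp in niche libraries against 887, 644 and 778 bp in distal libraries (log2 difference 0.65 ± 0.11 SE, limma adjusted p = 0.0325). It was not called without CT26 niche replicate 1 or 2, or without CT26 distal replicate 2 or 3. Over all changes of setting or library it was called in 13 of 22 alternatives (limma adjusted p 0.00485 to 0.963).

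Markers of other cell types were measured beside these loci. None of the 12 leukocyte marker loci tested was called by limma in either niche comparison, with 0 in 4T1 and 1 in CT26 at an unadjusted p under 0.05. Of 10 endothelial markers, 9 were tested and Emcn had no peak in any library. Limma called none of the 9 in either niche comparison, with 1 in 4T1 and 3 in CT26 at an unadjusted p under 0.05. Their summed scaled length was 19.1 to 21.9 kb in 4T1 niche libraries and 17.3 to 17.9 kb in 4T1 distal libraries, without overlap, and 17.6 to 20.4 kb in CT26 niche libraries against 17.3 to 19.7 kb in CT26 distal libraries. Pecam1, an endothelial adhesion gene, was called higher in the niche over both models (limma adjusted p = 0.0433), but was lost without 10 of the 12 libraries, CT26 niche replicate 3 and CT26 distal replicate 1 being the exceptions, and was called in 6 of 22 alternatives (adjusted p 0.00689 to 0.159). Its locus held 6667, 4466 and 5284 bp in 4T1 niche libraries, against 2485, 2528 and 2657 bp in 4T1 distal libraries. In CT26 it held 3059, 3060 and 1762 bp in niche libraries, against 1843, 747 and 1234 bp in distal libraries. The summed length of 8 fibroblast markers, 5 of them tested, was 5.91 to 7.33 kb in 4T1 niche libraries and 4.41 to 6.77 kb in 4T1 distal libraries, and it was 6.19 to 9.13 kb in CT26 niche libraries and 4.83 to 6.11 kb in CT26 distal libraries. Of the AT2 markers, Sftpb was called lower in the niche over both models (log2 difference -0.36 ± 0.07 SE, limma adjusted p = 0.0249), and it was not called without scaling, nor without any 1 of the 4T1 niche libraries, 4T1 distal replicate 1 or 3, or CT26 niche replicate 1. The part of such cells in the Ifi200 peaks was not tested.

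Other interferon-inducible families also had loci called in these comparisons, beside 0.594% of all loci called higher in the 4T1 niche and 0.523% in the CT26 niche. Of the guanylate-binding proteins, 0 of 10 loci were called by limma in the 4T1 niche (2 at an unadjusted p under 0.05) and 1 of 10 in the CT26 niche, Gbp8, whose locus held 910, 807 and 819 bp in niche libraries and none in distal libraries. Of the immunity-related GTPases, 1 of 10 was called in 4T1 (Tgtp2, 3139, 2368 and 2727 bp in niche against 716, 946 and 708 bp in distal libraries) and 3 of 10 in CT26 (Iigp1, Gm4951 and Gm12185). Iigp1 held 3327, 3342 and 4679 bp in CT26 niche against 772, 364 and 371 bp in CT26 distal libraries. Of the Oas and Ifit genes, 0 of 15 were called by limma in 4T1 (3 at an unadjusted p under 0.05) and 5 of 15 in CT26 (Ifit2, Oas1a, Oas1e, Oas1g and Oas3). These loci were called higher in the niche in each case. Leaving out 1 library ended the call of Gm12185 and Oas1g in most cases, of Gm4951 without CT26 niche replicate 1, of Oas1a without any 1 of the CT26 niche libraries, and of Ifit2 without CT26 niche replicate 1 or 2 or CT26 distal replicate 2 or 3. Tgtp2, Iigp1, Gbp8, Oas1e and Oas3 were called whichever 1 of the 12 libraries was left out, but none of these 5 was called with the same number of peaks per library or with the q threshold (adjusted p up to 0.750, 1, 0.508, 0.649 and 0.796, in the order named), and Oas1e and Oas3 were also lost with 2 kb beside the gene and in the gene body alone. The lists were not tested against the Ifi200 members, and neighbouring loci within them share regions.

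Over both models, where 1.5% of all loci were called higher, the list genes called higher in the niche were Casp4, Stat2, Gbp8, 5 immunity-related GTPases (Iigp1, Gm4951, Gm12185, Irgm2 and Tgtp2), and Ifit2, Oas1e and Oas3. Casp4 was lost in each of the 9 cases with 1 library left out that could be fitted, Gm12185 in all cases but those without CT26 niche replicate 3 or CT26 distal replicate 1, and Irgm2 without 4T1 niche replicate 1 or 2. The others were called whichever 1 library was left out, but each was lost under other settings. Of 22 alternatives, Stat2, Gm4951 and Oas3 were called in 18, Oas1e in 19, Gbp8 and Iigp1 in 20, and Tgtp2 and Ifit2 in 21. Between the models over both sites, 4.89% of all loci were called lower in CT26 with scaling, and 7788 of 16823 without it. The kinase Tbk1 of the STING pathway and the receptor kinase Jak1 were called lower in CT26 in both settings. Nothing is read from the calls without scaling. Casp1 and Casp4 were too, but entered the fit only through the 4T1 niche libraries, so nothing is read from it or from the call of Casp4 over both models. Also called lower in CT26 after scaling were Gbp8 and 6 of the 10 immunity-related GTPases (Gm12185, Gm4951, Iigp1, Irgm2, Tgtp1 and Tgtp2), as well as Gbp4, Gbp6, Gbp10, Oas1e, Oas3, Pecam1, Cd3e, Itgam, Lamp3 and Slc34a2. Banf1, Enpp1, Socs1, Gbp2b, Cebpa, Cldn5 and Col1a1 were called higher in CT26 after scaling, beside 19.2% of all loci, and none of these 7 was called without it. Enpp1 was lost without 10 of the 12 libraries and Gbp2b without 9, and Tbk1, Gm12185, Lamp3, Cebpa and Cldn5 were called in 6 or 7 of the 12 cases with 1 library left out. The niche difference of Gbp8 was larger in CT26 than in 4T1 by 1.07 ± 0.14 (SE) on the log2 scale of bp plus 500, a call lost without 8 of the 12 libraries, and its CT26 distal libraries held no peak.

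**Figure D4:**
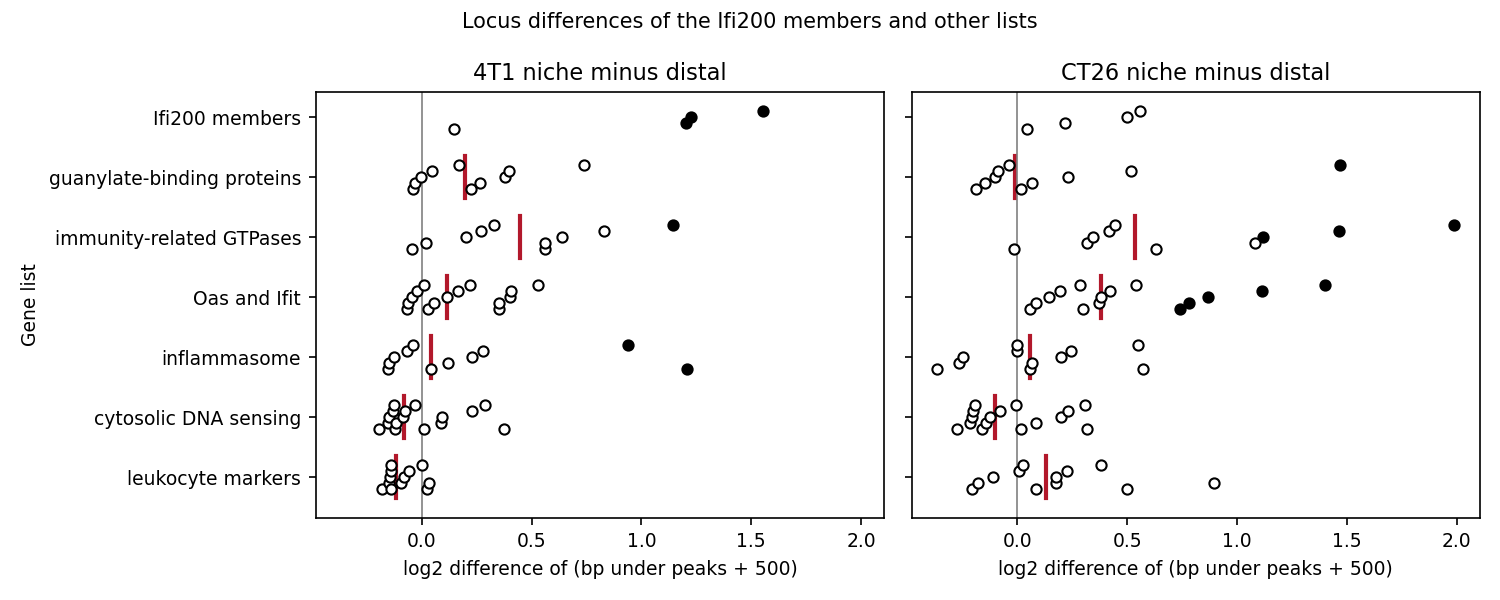
Log2 difference of bp under peaks plus 500, niche minus distal (horizontal axis), of each tested locus in 4T1 (left) and CT26 (right), by gene list (rows); filled points were called at an adjusted p under 0.05, open points were not, and red lines are list medians, not drawn for the Ifi200 members. Ifi203, Ifi204 and Ifi211 are the filled points of the top row in 4T1, and no point of that row is filled in CT26.

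The genes whose log2 scaled length under peaks followed that of the whole Ifi200 cluster most closely over the 12 libraries were Kirrel, Slc39a14, Cnbd2, Man2b1 and Fer, with a Pearson r of 0.904 to 0.882 (n = 12 libraries, which also differ in the length of their peak lists). These were the highest of all loci outside the cluster and its surroundings, so such values are in part a product of the choice. Kirrel, an adhesion gene, held, unscaled, 5.14 ± 0.89 kb in 4T1 niche, 2.13 ± 0.48 in 4T1 distal, 2.34 ± 0.77 in CT26 niche and 1.77 ± 0.91 in CT26 distal libraries (SD, n = 3 each).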

How the data were processed

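Broad peak lists, 1 per library and 12 in all, were deposited by the authors in GRCm38 coordinates. MACS2 and bedtools are named without versions, per the submitters' processing notes; no source used here gives the aligner or read filters. Start and end in bp, the fold enrichment (a ratio), -log10 p and -log10 q of each peak were read from the deposited lists, which hold no read counts, so no counting interval was computed.

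Chromosomes 1 to 19 and X were used. The bp under peaks over each protein-coding gene and 10 kb on both sides were scaled so that all libraries had the mean covered total. A linear model of 4 group means on log2(bp + 500) was run in limma 3.58.1 (R 4.3.3; eBayes with trend, two-sided) over 16823 loci called in 3 or more libraries, and was tested on simulated data. Regions, promoters and motifs were handled in Python 3.11.15. Alternatives changed the added length, scaling, filter, flank, peak set, replicate block and libraries. The 3 samples of a group are labelled as replicates 1 to 3 and were treated as independent. The members and lists were chosen with earlier results of these data known. Named genes are the 8 members, list genes called in any comparison, and the 5 loci most like the cluster.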

Additional observations from a re-analysis of the deposited data

Results flagged for a closer look

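Among the members and list genes, Gbp8, a guanylate-binding protein gene that is no member of the Ifi200 cluster, was the one locus whose niche difference was called as different between the models. The niche difference in CT26 exceeded that in 4T1 by 1.07 on the log2 scale of bp plus 500 (SE 0.14, limma adjusted p = 0.0223). Its locus held 910, 807 and 819 bp under peaks in CT26 niche libraries, against none in CT26 distal libraries, and 2117, 1659 and 1884 bp in 4T1 niche libraries, against 1046, 1064 and 1228 bp in 4T1 distal libraries. It was higher in the niche in all 3 libraries of both models, and the libraries without a peak add no spread to this p. The call was lost without any 1 of the 4T1 niche or 4T1 distal libraries and without CT26 niche replicate 2 or 3, and it held in 10 of 22 alternatives (adjusted p 0.000188 to 0.921). With peaks of -log10 q of at least 5 the difference was not called and had the opposite sign.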

How the results depend on the processing

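Limits were set by the peak lists: without reads a region is called or not, and a group in which no library has a peak adds no spread, so its p can be too small. The sites of Ifi204 and Ifi211 kept their 3 calls in the 4T1 niche with stricter peaks, the site of Ifi203 did not, and for other changes the cause was not tested. Loci called in 4T1 niche against distal (105) numbered 62 with 100 bp added, 569 without scaling, 44 with a peak in at least 6 libraries, 44 with -log10 q of at least 5 and 45 with the same number of peaks per library. In CT26 (113) they numbered 2027 without scaling and 224 with the q threshold. Over both models (401) they numbered 3981 without scaling, 192 with the q threshold and 98 with the same number of peaks. Between CT26 and 4T1 (4051) they numbered 7809, 6383 and 94 under these same settings. For the interaction (10) they numbered 25 without scaling, 5 with at least 6 libraries, 17 with 2 kb beside the gene, 48 in the gene body alone and 81 with the q threshold. Without scaling, 99.2% of the called loci were higher in the CT26 niche (77.9% with it) and 99.4% over both models (62.8% with it); for the interaction 44% were positive (30% with scaling).

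Of the members, 0 were called in 4T1 with 100 bp added and 1 with at least 6 libraries. Over both models 1 was called with 100 bp added, with at least 6 libraries and in the gene body alone. Between CT26 and 4T1, 0 were called with 100 bp added, 4 without scaling, 1 with 2 kb and 4 with the q threshold. For the interaction 3 were called with the q threshold and 3 with the same number of peaks. In both sets these loci entered the fit only through the 4T1 niche libraries. The cluster held 3 regions in both stricter sets. The 4T1 difference in covered length (2.32 kb) was 1.29 kb in gene bodies and 1.85 kb after scaling; the CT26 difference (0.149 kb) was -0.17 kb without CT26 distal replicate 2.

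With 1 library left out at a time, loci called ranged from 26 to 107 in 4T1, 37 to 117 in CT26, 90 to 358 over both models, 2516 to 4300 between CT26 and 4T1 and 0 to 18 for the interaction. Members called ranged from 0 to 3 in 4T1, 0 to 2 over both models and 1 to 2 between CT26 and 4T1, and were 0 in CT26 and for the interaction. Regions ranged from 8 to 9, and the covered length difference from 2.12 to 2.51 kb in 4T1 and -0.17 to 0.381 kb in CT26.

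Whether niche and distal libraries of the same number came from the same lungs was not settled, and the main fit treated them as unpaired. Deviations from the group means of same-numbered niche and distal libraries correlated at 0.0285 to 0.0892 in 4T1 and -0.0441 to 0.0175 in CT26. With 3 libraries per group such values cannot decide it. With the replicate number as a block, loci called numbered 62 in CT26, 214 over both models and 3 for the interaction, and 2 members were called in 4T1 and 1 between CT26 and 4T1.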

Other observations

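Over all genes, promoters with a pair of GAAA repeats set 2 bases apart were set beside those without. In 4T1, 5 of 1077 promoters with a match (0.464%) had a peak in all 3 niche and no distal library, and 0.424% of those without a match did. In CT26, 9 of 1077 (0.836%) had that pattern, and 0.276% of those without a match did. These shares are given as a description, and promoters that share a region are counted each.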
